A study of Mus musculus with 9 samples.

Results

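shPC25 is a short hairpin RNA against pyruvate carboxylase, and its effect on the transcriptome of the E0771 mouse mammary carcinoma line was measured here against a scramble hairpin (scram). The comparison rested on 6 arrays, 3 of scram cells and 3 of shPC25 cells, out of 9 arrays in all. The remaining 3 arrays held cells with the second hairpin, shPC28, and served to estimate the spread and to set values side by side. The comparison took in all 19505 genes with a symbol on the array, and the genes named below were chosen with their values known, as the ends of the ranking by change and as members of gene lists. Both groups were E0771 cells that carried a puromycin-selected lentiviral hairpin vector, so that scram cells also shared the vector and the selection. Cells of every group were grown without further treatment in a medium that held glucose at 5.6 mM, glutamine at 4 mM and fetal bovine serum at 10%. Labelled cDNA made from the RNA was hybridised to Clariom S mouse arrays, on which a probe set is a group of short probes summarised as 1 value. Whether each array stood for a culture of its own is not stated, and the p-values therefore cover the spread among the arrays only, part of which may be technical. In a bulk extract, fewer cells in a given state and less RNA per cell cannot be told apart.

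Pyruvate carboxylase is a biotin-dependent enzyme of the mitochondrial matrix that adds bicarbonate to pyruvate to form oxaloacetate. This anaplerotic step refills the tricarboxylic acid (TCA) cycle when its intermediates are drawn off for aspartate, nucleotide, lipid and glucose synthesis. Glutamine, which enters the cycle as 2-oxoglutarate, is the other main source of such carbon in cultured tumor cells. In breast cancer models the enzyme is known for a part in growth in the lung, where pyruvate is plentiful.

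The targeted gene was lower on every shPC25 array. Pcx, which encodes pyruvate carboxylase and lies on mouse chromosome 19, had log2 levels of 9.18, 8.84 and 9.20 on the scram arrays and 5.64, 5.43 and 5.53 on the shPC25 arrays. The groups did not overlap, and the 2 ranges were separated by more than 3 log2 units. The difference of -3.54 ± 0.15 (SE, log2 scale, n = 3 arrays per group) corresponded to a 11.6-fold lower level (limma adjusted p = 1.28e-05).

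Across the whole array, 4541 of 22206 probe sets (20.4%) passed an adjusted p of 0.05 between shPC25 and scram cells in the limma fit. Of these, 2041 (9.19% of those tested) were higher in shPC25 cells and 2500 (11.3%) were lower. The scram and shPC25 arrays did not overlap in 8647 probe sets (38.9%). The balance of higher and lower calls depended on how the arrays were scaled: 44.9% of the calls were higher in the deposited values, 61.5% after every array was centred on its median, and 32.0% after centring instead on the probe sets of olfactory receptors (sensory genes not known to act in this cell type). The median change over all probe sets was 0.04 on the log2 scale, and it was 0.07 over the 1091 olfactory receptor probe sets, of which 43 passed the test. Without scram replicate 3 the number of calls was 3021.

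More large falls than large rises were called. Among the called probe sets, 799 were at least 2-fold lower and 138 at least 2-fold higher, while 88 were at least 4-fold lower and 7 at least 4-fold higher. Small rises were common, since 1903 called probe sets rose by less than 2-fold and 1701 fell by less than 2-fold. The imbalance of large changes was seen in every quartile of mean level but the dimmest, and most of the large falls lay in the third. In the second quartile (3.008 to 4.949), 103 probe sets were called at least 2-fold lower and 12 at least 2-fold higher. In the third quartile of mean level (4.95 to 10.82 on the log2 scale), 568 probe sets were called at least 2-fold lower and 82 at least 2-fold higher. In the brightest quartile the corresponding counts were 126 and 42, and there 1185 of 5552 probe sets were called higher and 899 lower. The gene lists below are set beside all probe sets, not beside probe sets of like level. The median scram levels of the TCA cycle (13.51), ATP synthase (14.85) and DNA replication (13.01) lists, for example, lay in the brightest quartile. In the dimmest quartile only 2 probe sets were called at least 2-fold in each direction.

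**Figure D1:**
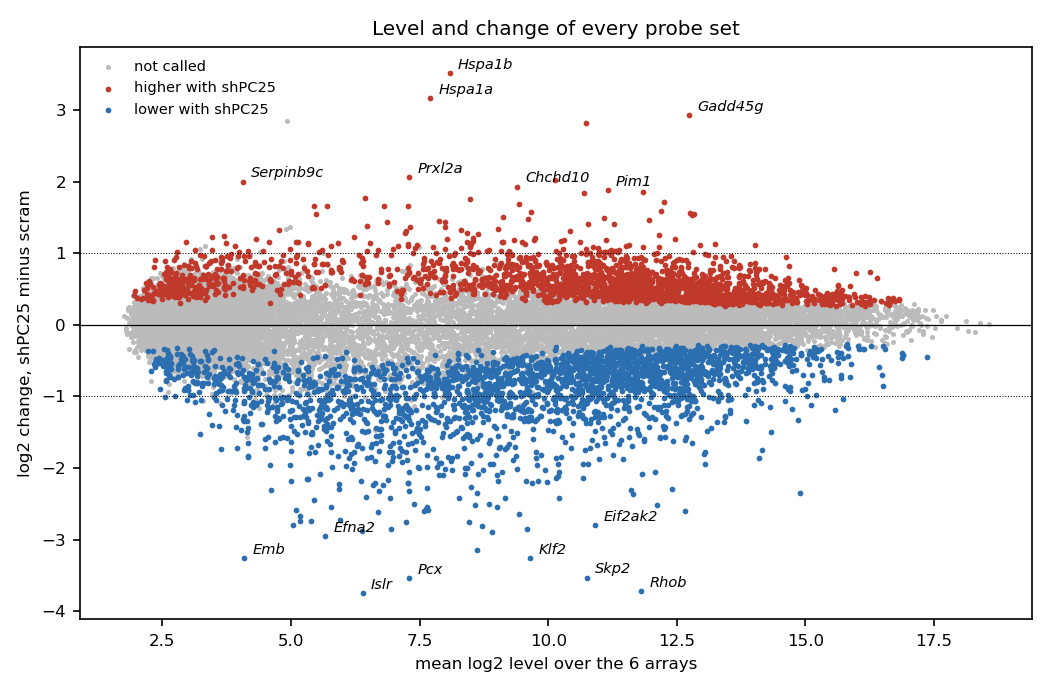
Log2 change (shPC25 minus scram, vertical axis) against the mean log2 level over the 6 arrays (horizontal axis) for each of 22206 probe sets, with called probe sets in red (higher) and blue (lower) and dotted lines at a 2-fold change. Large falls, including Pcx, Rhob and Skp2, spread over a wide range of levels, while only 7 called probe sets lie at or above a log2 change of 2.

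The labelled cell type was checked against marker genes. Of 5 epithelial markers, keratin gene Krt8 had a mean log2 level of 13.74 in scram cells, while Epcam was at 7.49, Cdh1, which encodes E-cadherin, at 4.89, Krt18 at 3.75 and Krt19 at 2.52. The last 2 lay near the bottom of the scale. The pan-leukocyte gene Ptprc was at 3.23, the myeloid genes Itgam at 2.46 and Adgre1 at 3.14, and the T-cell gene Cd3e at 2.52, and none of these 4 passed the test between shPC25 and scram cells. Of 6 macrophage markers, with scram means between 2.46 and 9.79, 2 (33.3%) were called lower, against 11.3% of all probe sets. These were Cd14 (-1.07) and Lyz2 (-0.42), calls that were lost in 7 and 3 alternatives. The 7 lymphocyte markers had scram means between 1.87 and 6.80, and none was called. Of 4 endothelial, 4 fibroblast and 3 adipocyte markers, 1 in each list was called lower and none higher. Their highest scram means were 4.81, 7.17 and 5.09. The part of such markers in the results below was not tested.

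The largest falls besides Pcx took in cell cycle, cytoskeletal and signalling genes. Skp2, which encodes the F-box protein that directs the cell cycle inhibitor p27 to degradation, had log2 levels of 12.45, 12.56 and 12.53 in scram cells and 8.84, 9.14 and 8.97 in shPC25 cells. It was thus lowered as much as the targeted gene, by 3.53 ± 0.13 on the log2 scale (adjusted p = 8.64e-06), and the arrays of both groups agreed within 0.4 log2 units. Rhob, a small GTPase gene with a short-lived message, fell from 13.51, 13.87 and 13.63 to 10.12, 9.48 and 10.25, a difference of -3.72 ± 0.31. No shPC25 array came within 3 log2 units of a scram array.

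The other genes at the low end covered several functions. Klf2, a Krüppel-like transcription factor, had 11.22, 11.29 and 11.33 in scram and 8.10, 8.13 and 7.82 in shPC25 cells (-3.26 ± 0.14). Islr, which encodes a secreted immunoglobulin and leucine-rich repeat protein, gave the largest fall of all named genes, from 8.41, 7.98 and 8.41 to 4.37, 4.29 and 4.90 (-3.75 ± 0.36). Emb, which encodes embigin, a glycoprotein partner of monocarboxylate transporters, went from 6.17, 5.77 and 5.20 to 2.61, 2.32 and 2.44 (-3.26 ± 0.25), and its shPC25 levels lay in the range of the dimmest quartile of probe sets. Of the 40 genes taken from the ends of the ranking, 11 (9 falls and 2 rises) had 1 group at or under the median level and entered only through the group in which they were high, Islr, Emb and Efna2 among them. In Klf2, Islr and Emb every shPC25 array lay below every scram array, but groups that do not overlap were a condition for all 40 genes.

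The remaining genes at this end fell by between 2.67 (Arhgef16, a guanine nucleotide exchange factor gene) and 3.14 (Tmem229b) on the log2 scale. They included the interleukin 1 receptor Il1r1 (-2.89), the ephrin Efna2 (-2.95), the Notch-modifying glycosyltransferase Lfng (-2.85), the pseudokinase Trib1 (-2.81), the death ligand Tnfsf10, also known as TRAIL (-2.79), and the double-stranded RNA kinase Eif2ak2 (-2.79). The zinc finger genes Zfp324 (-2.88) and Zfp217 (-2.76), the O-glucosyltransferase Poglut3 (-2.75), the actin-associated Afap1l1 (-2.85), Nacc2 (-2.74), Ctag2l1 (-2.74) and the ubiquitin ligase Trim21 (-2.72) completed the group. The adjusted p of these genes ran from 1.37e-05 (Ctag2l1) to 0.000526 (Nacc2).

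**Figure D2:**
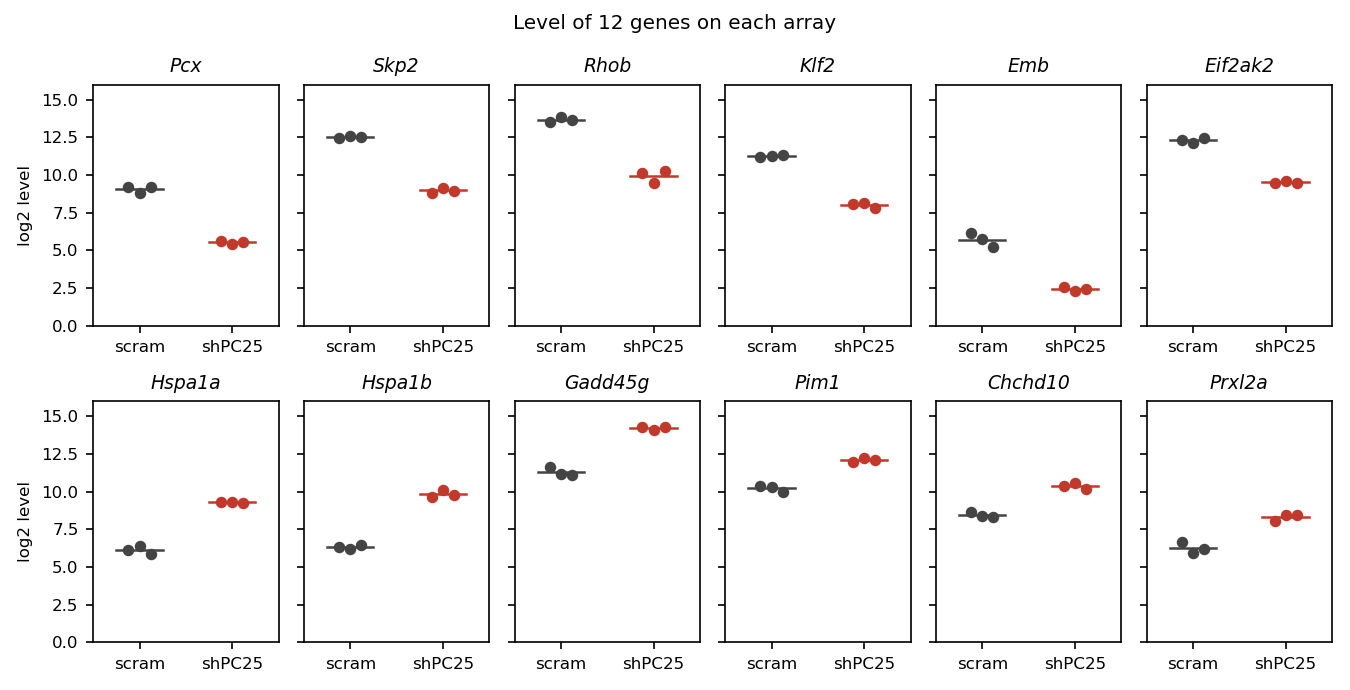
Log2 level (vertical axis) of 12 genes on each of the 3 scram arrays (grey points) and the 3 shPC25 arrays (red points), with a line at each group mean. Of these, 6 genes are lower (upper row) and 6 higher (lower row) in shPC25 cells. The groups do not overlap in any of the 12, which was a condition for choosing all of them but Pcx.

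The largest rises were led by heat shock, GADD45 and kinase genes. Gadd45g, a stress-induced gene whose product binds the kinase MEKK4, rose from 11.62, 11.13 and 11.08 in scram cells to 14.28, 14.10 and 14.25 in shPC25 cells, by 2.93 ± 0.15 on the log2 scale or 7.64-fold (adjusted p = 2.28e-05). Pim1, a constitutively active serine/threonine kinase gene, had 10.38, 10.27 and 9.98 and 11.97, 12.21 and 12.11 (1.89 ± 0.12). Chchd10, which encodes a small protein of the mitochondrial intermembrane space, had 8.62, 8.39 and 8.29 and 10.35, 10.59 and 10.15 (1.93 ± 0.14). For these 3 genes the lowest shPC25 array was at least 1.5 log2 units above the highest scram array.

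Strong rises were also seen in a pair of genes that are less well known in this setting. Prxl2a, a peroxiredoxin-like gene, rose from 6.66, 5.93 and 6.19 to 8.08, 8.45 and 8.43 (2.06 ± 0.33, adjusted p = 0.00299). Serpinb9c, a member of the intracellular serpin family, rose from 3.12, 2.97 and 3.11 to 4.69, 5.05 and 5.46 (2.0 ± 0.21). Its scram levels lay at the edge of the dimmest quartile of probe sets, which ends at 3.01, so that it entered only through its shPC25 level and its fold rests on a base near the bottom of the scale. Neither gene overlapped between groups, which was a condition of their choice. Of the 7 probe sets called at least 4-fold higher, these and Hspa1a, Hspa1b and Gadd45g made up 5, a further one reported Ddit3, and 1 has no symbol.

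The rest of the top of the list rose by between 1.49 (Ddit3) and 1.85 (Adm2) on the log2 scale. It held the peptide hormone gene Adm2 (1.85), the glycosyltransferase Rfng (1.75), the NF-kB-inducing kinase Map3k14 (1.69), the basic leucine zipper repressor Nfil3 (1.57), the receptor phosphatase Ptprg (1.65), Eepd1 (1.66), Thap3 (1.77), Lypd5 (1.65), the RNA exosome cofactor Zcchc7 (1.59) and the small nucleolar RNA Snord12 (1.56). Ddit3 was measured by a pair of probe sets, which gave 1.49 and 2.02, both called. All 41 genes at the ends of the list, Pcx among them, kept their call and direction in each alternative setting that measured them.

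Heat shock genes split into a pair that rose strongly and a larger number that did not pass the test. Hspa1a and Hspa1b encode the inducible HSP70 chaperone, which refolds proteins after stress, and they are near-identical neighbours on chromosome 17, so that probes may not tell them apart fully. Hspa1b had log2 levels of 6.32, 6.22 and 6.44 in scram cells and 9.67, 10.08 and 9.78 in shPC25 cells (3.52 ± 0.13, 11.4-fold, adjusted p = 8.64e-06). Hspa1a had 6.15, 6.37 and 5.84 and 9.28, 9.33 and 9.26 (3.17 ± 0.13, 9-fold). Their shPC25 arrays were all above 9 and their scram arrays all below 7.

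No other member of the list of 22 heat shock genes rose by more than 0.41 on the log2 scale. In all, 5 members (22.7%) were called higher and 2 (9.09%) lower, against 9.19% and 11.3% of all probe sets. Hspe1, the mitochondrial co-chaperonin, rose by 0.41, but its call was lost in 5 of the alternatives. The HSP90 gene Hsp90aa1 (-0.08), the HSP40 gene Dnajb1 (0.14) and the mitochondrial chaperonin Hspd1 (-0.13) did not pass the test. Bag3, a co-chaperone of HSP70, fell by 0.85 (adjusted p = 0.00141). The number of members called higher was between 2 and 3 when any single array was left out, Hspa1a and Hspa1b among them each time.

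Because this pair led the rises among the named genes, its promoter is shown. The letters below are the 250 bases before the annotated start of Hspa1b (GRCm38.p6, chr17:34959239-34959488, minus strand, RefSeq), with the heat shock element GAANNTTC in capitals, 97 to 104 bases before the start.
Hspa1b: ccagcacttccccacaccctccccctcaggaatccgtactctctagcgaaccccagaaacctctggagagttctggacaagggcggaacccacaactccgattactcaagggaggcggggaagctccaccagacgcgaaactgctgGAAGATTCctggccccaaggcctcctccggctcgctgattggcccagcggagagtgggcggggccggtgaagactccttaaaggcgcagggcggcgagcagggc
The corresponding 250 bases of Hspa1a (chr17:34972157-34972406, minus strand) differed at 3 positions and held the same match at the same distance. The element, searched as GAANNTTC or TTCNNGAA on both strands in windows from 250 bases before to 50 after a start, was found in 11 of 19 heat shock genes with a window, and in 15.4% of 15691 genes on the array with a window. Of the 11 members with a match, 4 were called higher and 1 lower, and of the 8 without one none was called. Hspe1 and Hspd1 are divergent neighbours on chromosome 1 whose windows overlap, and both hold the same 3 overlapping matches.
Hspe1 (chr1:55088047-55088088, plus strand): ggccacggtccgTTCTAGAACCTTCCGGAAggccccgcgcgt
With these same letters between them, Hspe1 had a log2 change of 0.41 and Hspd1 of -0.13.

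The GADD45 genes rose together. Gadd45b went from 11.22, 10.80 and 10.73 in scram to 12.77, 12.81 and 12.72 in shPC25 cells (1.85 ± 0.14) and Gadd45a from 11.93, 11.26 and 10.99 to 13.14, 13.21 and 12.97 (1.71 ± 0.21). With Gadd45g, all 3 family members were thus called higher. Their groups did not overlap, as the choice from the ends of the ranking required. In the list of these genes and their interaction partners, 4 of 7 measured members (57.1%) were called higher, the 3 Gadd45 genes among them, and none lower. Over all probe sets, 9.19% were called higher and 11.3% lower. The number higher was between 3 and 4 with single arrays left out. Of the partners, the kinase Map3k4 (-0.20), Cdk1 (-0.22) and the inhibitor Cdkn1a, which encodes p21 (-0.21), did not pass the test.

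In a list of 23 measured p53 target genes, which does not hold Gadd45a, 1 (4.35%) was called higher and 5 (21.7%) lower, against 9.19% and 11.3% of all probe sets. Phlda3, an inhibitor of AKT, fell by 1.57 ± 0.26, the sestrin Sesn1 by 1.52 ± 0.20, Ccng1, a cyclin G gene, by 0.96, and Mdm2, the ubiquitin ligase of p53, by 0.77. The proapoptotic genes Bbc3 (0.75) and Pmaip1 (-0.01) did not pass the test.

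Falls in the machinery of the G1/S transition were not limited to Skp2. Of 22 measured members of this list, 8 (36.4%) were called lower and none higher, and between 7 and 8 remained lower when single arrays were left out. Ccne1, which encodes cyclin E1, the activator of CDK2, had 12.93, 13.14 and 13.26 in scram and 11, 11.13 and 11.05 in shPC25 cells (-2.05 ± 0.11, adjusted p = 2.79e-05). Its paralogue Ccne2 fell by 1.11 and the CDK-activating phosphatase Cdc25a by 1.2. Skp1 and Cul1, which encode the scaffold of the ubiquitin ligase that uses Skp2, fell by 0.39 and 0.44. E2f3, measured by a pair of probe sets, gave changes of -0.75 and -1.13, both called.

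Several other members of the list did not pass the test. The substrate gene of Skp2, Cdkn1b, which encodes p27, had 0.07 ± 0.09, Cdk2 -0.26, Ccnd3 -0.13 and E2f1 -0.01. In the DNA replication list of 28, 7 (25%) were called higher and 4 (14.3%) lower, against 9.19% and 11.3% of all probe sets. The members called lower included Orc1 (-1.28), of the origin recognition complex, the origin licensing gene Cdc6 (-0.84) and the ribonucleotide reductase gene Rrm2 (-1.17). The number higher was between 1 (without scram replicate 2) and 4 with single arrays left out. Of 24 mitosis genes, 4 (16.7%) were called lower and 1 (4.17%) higher, against 11.3% and 9.19% of all probe sets. The number lower was between 2 (lowest without scram replicate 2, among others) and 3 with single arrays left out. Aurkb, the kinase of the chromosomal passenger complex, fell by 0.97, while Mki67 (-0.01), Top2a (0.05) and Ccnb2 (-0.01) did not pass.

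**Figure D3:**
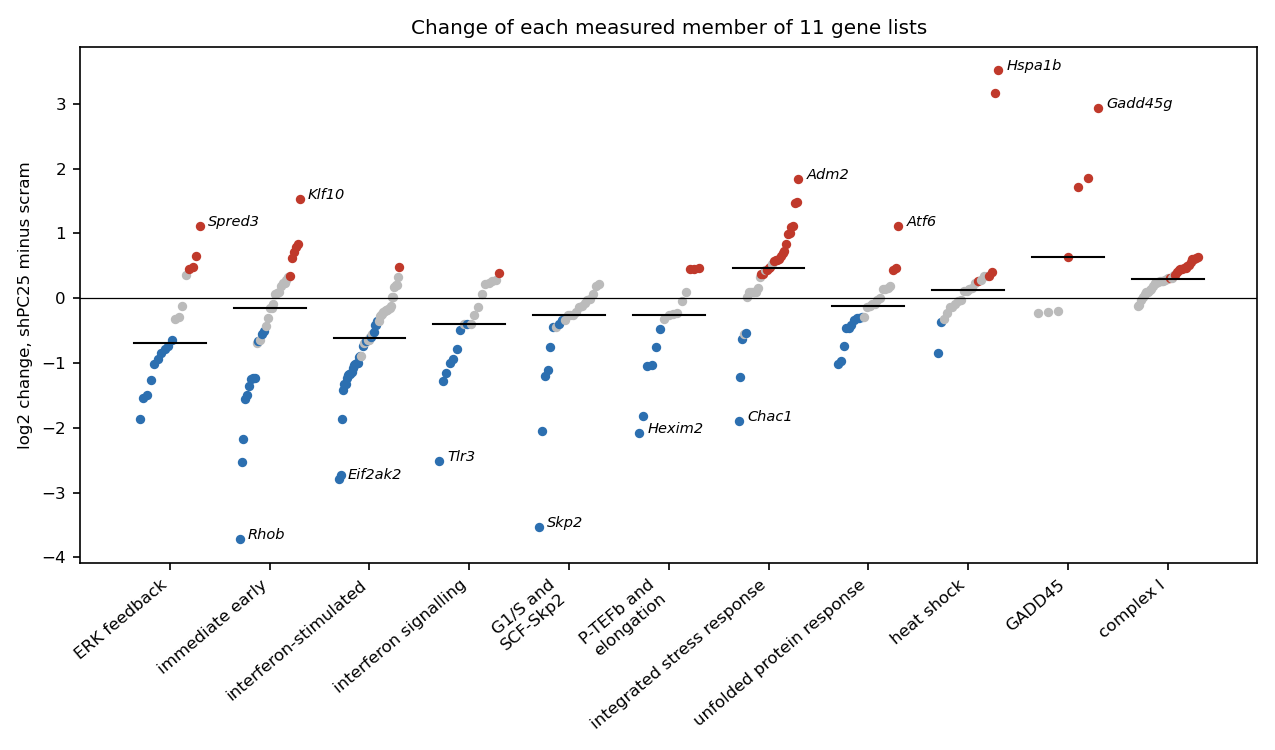
Log2 change (shPC25 minus scram, vertical axis) of each measured member of 11 gene lists, each list sorted from lowest to highest, with called members in red (higher) and blue (lower), others in grey and a black line at the list's median. The medians of the ERK feedback and interferon lists lie below 0 and those of the integrated stress response, GADD45 and complex I lists above it.

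The integrated stress response (ISR) is the program by which stress kinases phosphorylate eIF2α, slow translation and raise the transcription factor ATF4, and its targets rose in large part. Of 35 members measured, 20 (57.1%) were called higher and 4 (11.4%) lower, with a median log2 change of 0.47 against 0.04 over all probe sets. The number higher was 13 without scram replicate 3 and at most 19 with any other single array left out. Nupr1, a stress-induced chromatin protein gene, rose from 11.62, 11 and 11.06 to 12.60, 12.88 and 12.61 (1.47 ± 0.17), Cebpg, a partner of ATF4, by 1.12, the serine synthesis phosphatase Psph by 0.99, the translational repressor Eif4ebp1 by 0.84, and the amino acid transporter chain Slc3a2 by 0.73.

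Falls were called in 4 members of the list. Chac1, which degrades glutathione, fell from 10.73, 10.26 and 9.79 to 8.09, 8.04 and 8.98 (-1.89 ± 0.32, adjusted p = 0.00403), and the 3 shPC25 arrays all lay below the scram arrays. Ddit4, an inhibitor of mTORC1, fell by 0.62, the glutamine transporter gene Slc38a2 by 0.54, and Sesn2 by 1.21, although the call of Sesn2 was lost in 7 alternatives. Atf4 (0.10 ± 0.08) and Asns, the asparagine synthetase gene (0.16), did not pass the test.

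The promoters of Nupr1, which rose, and Chac1, which fell, both hold a match to TTGCATCA, the composite element bound by ATF4 and CHOP. It is shown here with Slc7a11, the cystine transporter gene (1.0, a call lost in 3 alternatives), because the same letters stood before genes that moved in opposite directions. Capitals mark the element on either strand, and builds and source are as above.
Nupr1 (chr7:126625561-126625592, minus strand): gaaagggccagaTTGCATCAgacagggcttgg
Slc7a11 (chr3:50443641-50443691, minus strand): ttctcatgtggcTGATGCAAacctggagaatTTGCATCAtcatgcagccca
Chac1 (chr2:119351037-119351068, plus strand): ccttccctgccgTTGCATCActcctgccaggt
The element stood in the windows of 6 of 29 members, and in 0.95% of genes on the array. Of these 6, 2 were called higher and 1 lower, and of the 23 members without it, 13 were called higher and 3 lower.

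In the list for the unfolded protein response of the endoplasmic reticulum, more members were called lower than higher. Of 24 members, 10 (41.7%) were called lower and 3 (12.5%) higher, although the number lower was between 5 (without scram replicate 1) and 6 when any single array was left out. The co-chaperone gene Dnajc3 fell by 1.01 ± 0.11, Eif2ak3, which encodes the eIF2α kinase PERK, by 0.96 ± 0.14, the mannosidase-like Edem1 by 0.74, and Hspa5, the major chaperone of the compartment, by 0.46. These 4 calls held in every alternative. Atf6, a membrane-bound sensor of this response, rose from 13.57, 13.39 and 13.44 to 14.60, 14.57 and 14.58 (1.12 ± 0.10). Xbp1 (-0.02) and the HSP90 paralogue Hsp90b1 (-0.12) did not pass the test.

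Many genes induced by interferon were called lower. Of 50 interferon-stimulated genes measured, 25 (50%) were called lower and 1 (2.0%) higher, with a median change of -0.62, and the median was between -0.69 and -0.44 under the 3 other scalings. The number lower was 16 without shPC25 replicate 1 and at most 20 without any other array. Eif2ak2, the kinase PKR, had 12.33, 12.11 and 12.48 in scram cells and 9.48, 9.58 and 9.48 in shPC25 cells (adjusted p = 0.000478), and Trim21, a cytosolic antibody receptor and ubiquitin ligase, had 6.90, 7.72 and 7.30 and 4.5, 4.23 and 5.02 (adjusted p = 0.000315). In both genes every shPC25 array lay below every scram array, as their choice from the low end of the ranking required.

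Other members of the list fell by smaller amounts. The guanylate-binding protein Gbp7 fell by 1.86 ± 0.24, Ifit1, which binds foreign RNA, by 1.32 ± 0.18, Usp18, which removes ISG15 from proteins, by 1.32, Parp12 by 1.24, the immunity-related GTPase Irgm1 by 1.14, the chemokine Cxcl10 by 1.08 and Rsad2, which encodes viperin, by 1.02. Irf9, an interferon regulatory factor gene, fell by 1.0 and Irf1 by 0.73. In contrast, Isg15 (-0.17), Bst2 (0.17), Ifitm3 (0.21) and Stat2 (-0.21) did not pass the test, and Isg20 rose by 0.49.

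Many promoters of this list hold letters of the interferon-stimulated response element, searched here as GAAANNGAA on both strands. They are shown for 5 genes that fell and 2 that did not pass the test, chosen after their values were seen, to let the letters be compared. Capitals mark each match in the bases before the start.
Ifit1 (chr19:34640768-34640825, plus strand): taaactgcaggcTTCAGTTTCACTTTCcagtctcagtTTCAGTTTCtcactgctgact
Gbp7 (chr3:142530272-142530304, plus strand): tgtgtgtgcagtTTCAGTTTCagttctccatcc
Irgm1 (chr11:48871424-48871462, minus strand): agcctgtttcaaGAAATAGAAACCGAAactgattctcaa
Rsad2 (chr12:26456551-26456583, minus strand): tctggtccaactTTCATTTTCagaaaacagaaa
Cxcl10 (chr5:92349082-92349114, minus strand): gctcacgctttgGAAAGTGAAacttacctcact
Isg15 (chr4:156200864-156200908, minus strand): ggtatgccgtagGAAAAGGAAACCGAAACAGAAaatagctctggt
Bst2 (chr8:71537576-71537614, minus strand): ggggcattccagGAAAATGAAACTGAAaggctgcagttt
The first 5 fell and the last 2 did not pass the test, yet Isg15 carries 3 matches and Bst2 2. Over the list, 26 of 41 members with a window held a match, against 9.28% of genes on the array. Among those 26, 11 were called lower (median change -0.62), and among the 15 without a match 12 were called lower and 1 higher (median change -0.66).

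Some receptors, kinases and sensors upstream of these genes were also called lower. Of 18 interferon signalling genes, 8 (44.4%) were called lower and 1 higher. Tlr3, the endosomal sensor of double-stranded RNA, fell from 9.85, 10.15 and 10.30 to 7.38, 7.94 and 7.46 (-2.51 ± 0.17, adjusted p = 8.88e-05), a fall of 5.68-fold without overlap. The type I receptor chain Ifnar1 fell by 1.15 ± 0.13, the receptor-associated kinases Jak2 and Tyk2 by 1.0 and 0.79, the DNA sensor Cgas by 0.94, and the feedback inhibitor Socs1 by 1.27. Ifnb1, which encodes interferon beta, was near the floor in both groups (2.87 and 3.16), and Sting1 (0.21), Mavs (-0.13), Irf3 (0.07) and Jak1 (0.26) did not pass the test.

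Among 19 genes of antigen presentation and immune checkpoints, 7 (36.8%) were called lower and none higher, against 11.3% and 9.19% of all probe sets. The number lower was between 2 (without scram replicate 3) and 5 when single arrays were left out, and at 2 the share is no higher than over all probe sets. The checkpoint ligands held in every alternative: Cd276, also known as B7-H3, fell from 10.54, 10.91 and 10.87 to 8.97, 8.87 and 9.04 (-1.81 ± 0.16) and Cd274, which encodes PD-L1, from 6.36, 6.16 and 6.09 to 4.63, 5.18 and 4.77 (-1.34 ± 0.20). The scram and shPC25 arrays did not overlap in either. B2m (-0.16), Tap1 (-0.27) and the phagocytosis inhibitor Cd47 (-0.09) did not pass the test.

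Falls of varied size were called among cytokine receptors and ligands. Of 39 members of the NF-kB and cytokine list, 10 (25.6%) were called lower and 3 (7.69%) higher. The other 26 did not pass the test, and the median change was -0.07. Tnf fell from 7.56, 7.71 and 7.96 to 4.97, 5.73 and 5.92 (-2.20 ± 0.27, adjusted p = 0.000857), and the transforming growth factor receptor Tgfbr1 from 9.36, 9.46 and 9.34 to 7.11, 7.58 and 7.47 (-2.0 ± 0.20). Tgfbr2 fell by 0.94, the interleukin 6 receptor chains Il6ra and Il6st by 0.97 and 0.68, and Csf1, a macrophage growth factor gene, by 0.90. With Il1r1, 5 receptor genes of this list were thus lower.

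The members called higher included Map3k14 and Nfkbia. Map3k14, which encodes the kinase that starts the alternative NF-kB pathway, went from 8.81, 8.48 and 8.48 to 10.49, 10.10 and 10.25 (1.69 ± 0.16), and the inhibitor Nfkbia rose by 0.60 ± 0.12. The subunit genes Rela (0.19), Rel (0.34) and Relb (0.19) and the chemokine Ccl2 (0.02) did not pass the test.

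In the list of ERK feedback genes, more members were called lower than higher. Of 18 measured genes, 10 (55.6%) were called lower and 4 (22.2%) higher, with a median of -0.69. The dual-specificity phosphatases that switch off MAP kinases fell with Dusp5 from 11.13, 11.09 and 11.03 to 9.28, 9.32 and 9.05 (-1.87 ± 0.23), Dusp1 from 15.16, 15.06 and 15.03 to 13.69, 13.51 and 13.57 (-1.49 ± 0.10), Dusp2 by 1.55 and Dusp6 by 1.01. Spred1, an inhibitor of RAS activation, fell by 1.27 and its paralogue Spred2 by 0.65, whereas the third paralogue, Spred3, rose from 8.14, 8.02 and 7.61 to 9.03, 8.85 and 9.26 (1.12 ± 0.17). The ERK-responsive factors of the ETS family split likewise, with Etv5 at -0.85 and Etv4 at 0.49, both called.

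Immediate early genes, which are induced within minutes by growth factors and have short-lived messages, moved in both directions. Of 33 members, 12 (36.4%) were called lower and 6 (18.2%) higher. Ier2 fell from 9.96, 9.76 and 9.81 to 7.19, 7.25 and 7.52 (-2.52 ± 0.18), the kinase Sgk1 from 10.74, 11.20 and 10.73 to 8.66, 8.63 and 8.85 (-2.18 ± 0.20), and the matricellular Ccn2 by 1.56. The AP-1 subunits Jun and Fosl1 fell by 1.24 and 1.24, the antiapoptotic Mcl1 by 1.23, and Zfp36l1, whose product destabilises messages with AU-rich elements, by 1.49.

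Other AP-1 and zinc finger members of the same list rose. Klf10, a TGF-beta inducible factor gene, went from 12.30, 11.82 and 11.95 to 13.65, 13.47 and 13.56 (1.54 ± 0.15), Junb rose by 0.79 ± 0.16, Fosl2 by 0.62 and the nuclear receptor Nr4a3 by 0.84. Egr1 (-0.09) and Srf (0.28) did not pass the test, and Myc rose by 0.34 but lost its call in 9 alternatives. Within the Krüppel-like family of 17, Klf2 and Klf13 (-0.94) were called lower (11.8%) and Klf10 and Klf4 (0.98) higher (11.8%). These shares were close to those of all probe sets, 11.3% lower and 9.19% higher.

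Genes that hold back transcriptional elongation were among the strong falls. P-TEFb is the kinase that releases paused RNA polymerase II, and it is kept inactive in a complex of HEXIM proteins, the 7SK RNA, MEPCE and LARP7. Hexim2 fell from 9.58, 9.75 and 9.70 to 7.67, 7.43 and 7.70 (-2.08 ± 0.25) and Hexim1 from 14.13, 13.86 and 13.80 to 12.23, 12.08 and 12.05 (-1.81 ± 0.20). Mepce fell by 1.02, and Aff4, a scaffold of the super elongation complex, by 1.04, while Larp7 (0.09) and the cyclin T genes Ccnt1 (-0.04) and Ccnt2 (-0.24) did not pass the test. In the list of 15, 6 (40%) were called lower and 3 (20%) higher, and the number higher was 1 without scram replicate 2.

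In a large family of transcription factors, falls were called more often than rises. Of 330 zinc finger genes named Zfp, 64 (19.4%) were called lower and 26 (7.88%) higher, against 11.3% and 9.19% of all probe sets. Their median change was -0.12 and lay between -0.20 and -0.02 under the 3 other scalings. The number lower was 42 without scram replicate 2. The median scram level of these genes, 8.98, lay in the third quartile of mean level. In that quartile 1288 of 5551 probe sets were called lower and 552 higher, so the share lower in the list does not exceed that of the quartile.

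In the Notch list of 18, 3 members (16.7%) were called lower and 1 (5.56%) higher, against 11.3% and 9.19% of all probe sets. Lfng went from 11.05, 10.88 and 11.09 to 8.32, 8.25 and 7.89 (-2.85 ± 0.24), Notch1 from 7.84, 8.63 and 8.51 to 6.12, 6.53 and 6.18 (-2.05 ± 0.31), and the ligand Dll1 fell by 1.23, while Rfng, a fringe glycosyltransferase like Lfng, rose by 1.75. The targets Hes1 (-0.13) and Hey1 (0.32) did not pass the test. Among 21 ephrins and Eph receptors, 3 (14.3%) were called lower, all of them ligands, Efna2, Efnb1 (9.43, 9.30 and 9.70 in scram against 7.08, 6.94 and 7.17 in shPC25 cells) and Efna3 (-1.19), and no receptor was called.

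Of 5 subunit genes of the volume-regulated anion channel, 3 (60%) were called lower and none higher, and 2 were called lower with any single array left out. Lrrc8a, the obligatory subunit, fell from 10.25, 9.88 and 10.20 to 8.75, 8.84 and 8.84 (-1.30 ± 0.27), and Lrrc8b from 6.46, 6.66 and 6.89 to 4.99, 4.84 and 4.83 (-1.78 ± 0.12). Neither overlapped between groups. Lrrc8c fell by 0.35 ± 0.11, with an adjusted p close to the threshold (0.0499) and a call that was lost in 10 alternatives. Lrrc8d (-0.18) and Lrrc8e (-0.30) did not pass the test.

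Several genes around pyruvate carboxylase in central metabolism changed. Of 15 measured genes of anaplerosis and glutamine use, 5 (33.3%) were called higher and 3 (20%), Pcx among them, lower. Gpt2, the mitochondrial alanine transaminase that forms 2-oxoglutarate from glutamate and pyruvate, rose from 11.15, 10.93 and 10.97 to 12.21, 12 and 12.17 (1.11 ± 0.12, adjusted p = 0.000486). Asl, the argininosuccinate lyase gene, rose by 0.99 ± 0.10, the cytosolic aspartate transaminase Got1 by 0.64 ± 0.09, and Pck2, the mitochondrial phosphoenolpyruvate carboxykinase gene, by 0.57 ± 0.12.

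On the lower side, Slc25a13, a mitochondrial aspartate-glutamate carrier, fell from 13.05, 13.24 and 13.23 to 11.77, 11.70 and 11.92 (-1.38 ± 0.12), and the mitochondrial malic enzyme Me2, which makes pyruvate from malate, by 0.63 ± 0.10. The cytosolic malic enzyme Me1 (-0.15), the mitochondrial transaminase Got2 (0.06) and the glutamine transporter Slc1a5 (0.22) did not pass the test.

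Most genes that bring pyruvate into its other branches did not pass the test. Of 19 genes of pyruvate and lactate handling, none was called higher and 3 (15.8%) lower, against 9.19% and 11.3% of all probe sets. The lactate exporter Slc16a3 fell from 16.12, 16.24 and 16.13 to 14.77, 15.03 and 15.13 (-1.19 ± 0.11), next to Emb described above. The lactate dehydrogenase gene Ldha (0.14 ± 0.09), the pyruvate carrier subunit Mpc1 (0.14), the pyruvate dehydrogenase subunits Pdha1 (-0.16) and Pdhb (0.19), the kinase Pdk1 (0.24) and the transporter Slc16a1 (-0.17) did not pass the test. In glycolysis 3 of 16 genes (18.8%) were called lower, led by Pgam1, the phosphoglycerate mutase gene (-0.70 ± 0.10), and the glucose transporter Slc2a1 (0.07) did not pass.

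In the TCA cycle list of 19, 5 genes (26.3%) were called higher and 2 (10.5%) lower, against 9.19% and 11.3% of all probe sets. The number higher was between 1 and 2 with any single array left out. Idh2, the mitochondrial NADP-dependent isocitrate dehydrogenase gene, rose by 0.50 ± 0.09, and Sdhd, a membrane anchor of succinate dehydrogenase, fell by 0.70 ± 0.08. Both held in all alternatives. The malate dehydrogenase genes Mdh1 (-0.00) and Mdh2 (0.05) and the fumarase gene Fh1 (0.22) did not pass the test.

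A part of the respiratory chain and mitochondrial ribosome genes was called higher, by small amounts. Of 36 complex I genes, 15 (41.7%) were called higher and none lower, against 9.19% and 11.3% of all probe sets. Their median change was 0.30 and ran from 0.23 to 0.40 under the 3 other scalings. Ndufa2 rose by 0.63 ± 0.12 and Ndufa6 by 0.63 ± 0.12, both accessory subunits. In complexes II and III, 5 of 14 genes (35.7%) were called higher and 2 (14.3%) lower. The number higher was between 3 (without scram replicate 3, among others) and 5 with single arrays left out. Uqcr10 rose by 1.02 and Uqcrc2 by 0.83. In complex IV, 6 of 17 genes (35.3%) were called higher and 2 (11.8%) lower. The number higher was between 2 (without scram replicate 2, among others) and 4 with single arrays left out. Cox7a2l, a supercomplex factor gene, rose by 0.94, while the assembly factor Cox11 fell by 0.78.

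Of 15 ATP synthase genes, 4 (26.7%) were called higher and 1 (6.67%) lower, against 9.19% and 11.3% of all probe sets. The number higher was between 1 (without scram replicate 2, among others) and 2 with single arrays left out, a share near that of all probe sets. Atp5e, a small subunit gene, rose by 0.94 ± 0.13. Of 76 genes of the mitochondrial ribosome, 30 (39.5%) were called higher and 3 (3.95%) lower. Of 64 genes of the cytosolic ribosome, 22 (34.4%) were called higher and none lower, but the number was only 4 without scram replicate 3 and at most 15 without any other array. CHCHD genes encode small proteins with paired cysteines imported into the intermembrane space. Of 8 such genes, 5 (62.5%) were called higher, led by Chchd10 and Chchd5 (1.17 ± 0.13), and 1 (12.5%) lower. The number higher was between 2 (without scram replicate 2 or shPC25 replicate 1) and 4 with single arrays left out.

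**Figure D4:**
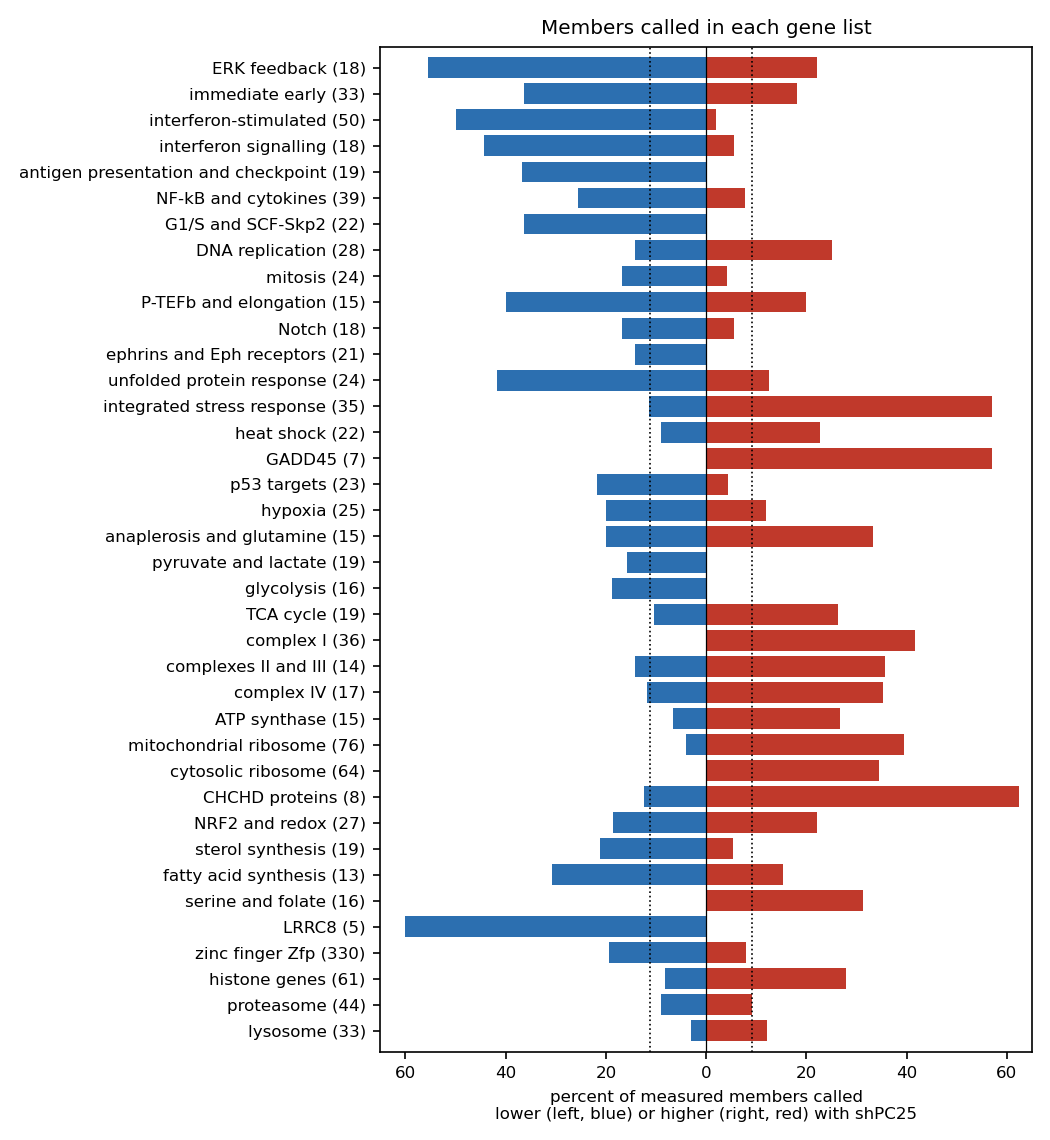
Percent of the measured members of each of 38 gene lists (number measured in brackets) called lower (blue, to the left) or higher (red, to the right) in shPC25 cells, with dotted lines at the shares of all probe sets, 11.3% lower and 9.19% higher. ERK feedback and interferon-stimulated genes reach 55.6% and 50% lower, and the integrated stress response and complex I lists 57.1% and 41.7% higher.

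One-carbon, lipid, redox and oxygen response genes changed at single steps. Mthfd2, a mitochondrial folate enzyme gene, rose by 0.70 ± 0.12. In the serine and folate list of 16, 5 (31.2%) were called higher and none lower, against 9.19% and 11.3% of all probe sets. Hmgcs1, the enzyme that opens sterol synthesis, fell from 13.69, 13.98 and 14.01 to 12.53, 12.40 and 12.42 (-1.44 ± 0.17), while Fdft1, the squalene synthase gene, rose by 0.41 and the other 14 of 19 sterol genes besides Stard4 (-0.84), Cyp51 (-0.45) and Dhcr7 (-0.48) did not pass the test. The call of Dhcr7 was lost in 9 alternatives.

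In fatty acid synthesis the elongases Elovl6 and Elovl1 fell by 0.93 and 0.81 and the desaturase Scd1 rose by 0.55, while Acly (-0.04), which makes cytosolic acetyl-CoA from citrate, did not pass. Among redox genes, Srxn1, which repairs peroxiredoxins, fell by 0.93 and the mitochondrial thioredoxin Txn2 rose by 0.70. Of 25 hypoxia genes, 5 (20%) were called lower and 3 (12%) higher, against 11.3% and 9.19% of all probe sets. The prolyl hydroxylase Egln3 fell from 13.34, 13.62 and 13.70 to 11.32, 11.21 and 11.27 (-2.29 ± 0.15), the adenylate kinase Ak4 from 11.01, 11.29 and 11.20 to 9.00, 9.27 and 9.38 (-1.95 ± 0.17), and the carbonic anhydrase Car12 by 1.82, whereas the peptide hormone gene Adm rose by 0.79 and Vegfa (0.22), Hif1a (-0.04) and Bnip3 (0.22) did not pass.

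The second hairpin was set beside the first for the named genes. Both comparisons use the same 3 scram arrays, so that their values are not independent, and the genes were chosen on shPC25. In all, 41.7% of probe sets were called between shPC28 and scram cells and 26.2% between the 2 hairpins directly. Pcx was less depleted by shPC28 (-2.26) than by shPC25 (-3.54), and the direct difference between the hairpins was 1.28 (adjusted p = 0.000307). In contrast, several of the named genes had larger changes with shPC28: Hspa1b had 6.97, Rhob -7.16, Gadd45g 4.34 and Klf2 -5.23 with shPC28, beside 3.52, -3.72, 2.93 and -3.26 with shPC25.

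Some genes had values of similar size with both hairpins. Skp2 had -3.31 with shPC28 and -3.53 with shPC25, Il1r1 -2.93 and -2.89, Afap1l1 -2.98 and -2.85, and Gadd45a 1.51 and 1.71. Prxl2a and Serpinb9c stood apart, since their log2 levels with shPC28 were 5.68, 5.46 and 6.78 and 3.86, 3.25 and 3.37, so that the former overlapped the scram arrays and the latter lay just above them.

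**Figure D5:**
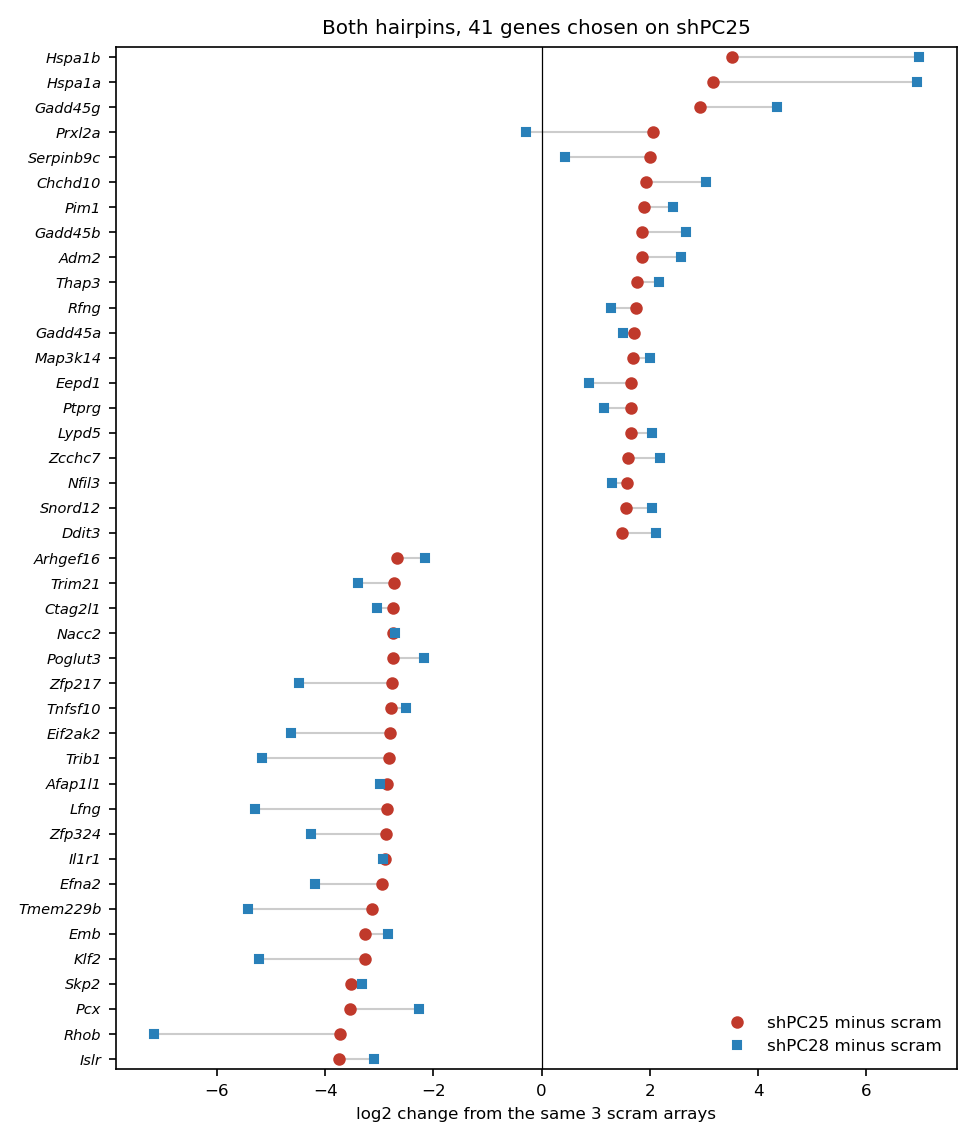
Log2 change from the same 3 scram arrays (horizontal axis) with shPC25 (red circles) and shPC28 (blue squares) for the 41 genes chosen on shPC25 (vertical axis), with a grey line joining the values of a gene. Pcx changed by -3.54 with shPC25 and -2.26 with shPC28, and Prxl2a and Serpinb9c lie near 0 with shPC28.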

How the data were processed

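The authors deposited log2 signal values per probe set, made in Transcriptome Analysis Console; the base of 2 was taken from the range of the values, and for the summarisation, the normalization and the genome build no statement was found in the labels or methods. The values of 9 Clariom S arrays (3 each of scram, shPC25 and shPC28) were used as deposited. Every probe set (22206) was fitted with 1 mean per group in limma 3.58.1 (R 4.3.3, lmFit and eBayes), and shPC25 was set against scram with Benjamini-Hochberg adjustment over all probe sets, called at an adjusted p under 0.05. A gene with several probe sets is given by the one with the highest mean. Probe sets were named through the platform annotation (19572 with 1 symbol, 2634 without). The genes named are Pcx, the 20 highest and 20 lowest called changes among genes with groups that do not overlap and a higher group mean above the median level, and list members. The members and lists were chosen with earlier results of these data known. The script was tested first on data with known answers. In all, 15 alternatives were run: the 6 arrays alone, removal of dim probe sets, 3 scalings, a trended robust fit, array weights, the replicate block and the loss of each of 6 arrays. The ATF4 and CHOP element was searched after the data had been seen. Motif searches and figures used Python 3.11.15.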

Additional observations from a re-analysis of the deposited data

Results flagged for a closer look

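Of the 20 genes with the largest rises, 14 differed in level between the hairpins by the direct test. So did 10 of the 20 largest falls and 26.2% of all probe sets. Several of the 14 rises, Hspa1b, Gadd45g and Chchd10 among them, were larger with shPC28, while those of Rfng and Eepd1 were smaller. Of the 14, 2 genes, Prxl2a and Serpinb9c, were not called between shPC28 and scram. Prxl2a changed by 2.06 with shPC25 and by -0.29 with shPC28, and the difference between the hairpins was -2.35 (limma adjusted p = 0.000898). Serpinb9c changed by 2.0 with shPC25 and by 0.43 with shPC28, and the difference was -1.57 (adjusted p = 0.000742).
Other named genes were called in opposite directions with the 2 hairpins, and the direct test of the difference was passed. Junb changed by 0.79 with shPC25 and by -0.98 with shPC28 (difference -1.77, adjusted p = 7.82e-05). Lyz2 changed by -0.42 with shPC25 and by 0.80 with shPC28 (difference 1.22, adjusted p = 4.68e-05). Myc changed by 0.34 with shPC25 and by -0.47 with shPC28 (difference -0.81, adjusted p = 0.000418). Nr4a3 changed by 0.84 with shPC25 and by -0.91 with shPC28 (difference -1.75, adjusted p = 6.58e-05).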

How the results depend on the processing

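The fall of Pcx kept its direction and its call in all 15 alternatives (-3.66 to -3.30). The number of probe sets called ranged from 3021 (without scram replicate 3) to 3500 when 1 array was left out, with 1199 to 1468 higher and 1822 to 2032 lower. The number higher was 3151 after centring arrays on the median and 1356 after centring on olfactory receptors, and it was 1171 in the fit with the replicate block, where 3073 probe sets were called in all and 1902 lower. Quantile normalization gave 614 probe sets at least 2-fold lower and 238 at least 2-fold higher, and median centring 222 higher. Same-numbered arrays of the 2 groups did not deviate together from their group means (correlations of -0.147, -0.178 and -0.184). Such deviations cancel within a group of 3, so these values cannot settle whether the numbers pair the samples. Of 176 named genes with a call, 167 kept it in every alternative that measured them and 9 lost it in at least 1 (Cd14, Dhcr7, Hspe1, Krt8, Lrrc8c, Lyz2, Myc, Sesn2 and Slc7a11, with a highest adjusted p of 0.149, for Lrrc8c), and none changed direction. Of the named genes without a call, 19 gained one in at least 1 alternative. The counts of list members called higher or lower were within 1.5 times of the given ones in 1218 of 1530 comparisons across alternatives. With 3 arrays per group, no change under 0.26 on the log2 scale was called in the values as reported, and rises smaller than the shift between scalings cannot be told from it.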

Other observations

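Of 61 histone genes, 17 (27.9%) were called higher and 5 (8.2%) lower, against 9.19% and 11.3% of all probe sets. Their median scram level, 14.66, lay in the brightest quartile, where 1185 of 5552 probe sets were called higher and 899 lower. The number of histone genes called higher was between 6 (without scram replicate 3) and 15 when single arrays were left out. H2ax, the histone variant phosphorylated at DNA breaks, fell by 0.99 ± 0.12 and H2bc3 rose by 0.77 ± 0.16. Histone genes are near-identical copies, so that their probe sets may share signal. Of 33 lysosome genes, 4 (12.1%) were called higher, led by the proton pump subunit Atp6v1f (0.92 ± 0.14), and 1 (3.03%) lower. The share higher was close to the 9.19% of all probe sets. Of 12 prostaglandin genes, Ptges2 (0.74) and Ptges3 (0.50) were called higher (16.7%, against 9.19% of all probe sets) and none lower.

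Among genes of the epithelial to mesenchymal transition, S100a4 fell by 1.06 ± 0.12 and Snai2, a repressor of E-cadherin, rose by 0.65 ± 0.14, while Vim (0.10) and Twist1 (0.00) did not pass the test. In the matrix list of 28, Col1a1 fell by 0.96 ± 0.15 and Timp2 by 0.52 ± 0.09. In all, 4 members (14.3%) were called lower, close to the 11.3% of all probe sets, and none higher.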
